A study of Gallus gallus with 6 samples.

Results

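Genes for splicing factors and related RNA-binding proteins were followed across growing neck, wing and leg feathers of adult chickens. They were chosen by gene name alone, as the entries whose name begins with SRSF, SFRS, HNRNP, HNRPK, HNRPD, SF3A, SF3B, SNRP, PRPF, U2AF, SRRM, TRA2, ESRP, CELF or MBNL, or with LSM, DDX, DHX or RBM and a digit. Entries that hold several gene names under one value were left out, which removed 5 matching entries. The rule gave 85 of 6534 entries in 1 of the deposited tables (the whole-number table below) and 76 of 6534 in the other (the FPKM table). These are 109 genes in all, with 52 listed in both tables, 33 in the whole-number table only and 24 in the FPKM table only. The names also take in helicases, LSm and RBM proteins that act in translation, ribosome assembly or mRNA decay rather than in splicing.

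The animals were untreated wild-type chickens of the strain labelled domesticus, and feathers were plucked while they grew. The labels describe the ramogenic epithelium, the zone where barbs form, with the pulp cut away and several feathers pooled, whereas the paper's methods describe whole follicles or dissected papilla and pulp. Each region has 2 replicates, 6 libraries in all, and the wing samples are labelled as contour feathers. Replicate 1 of every region lies in the whole-number table, whose unit is not stated, and replicate 2 lies in the FPKM table (fragments per kilobase of transcript and per 1e6 mapped fragments). A region therefore has 1 library in each table, no test across replicates was used, and the FPKM table is the only replicate check on the other. The column names of the FPKM table give each region a different number after the word chicken, and whether it names a bird is not stated. A difference between regions there and a difference between birds therefore cannot be told apart.

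A pre-mRNA is cut and joined by the spliceosome, which is built from small nuclear ribonucleoproteins on rings of Sm and LSm proteins. U2AF and the SF3A and SF3B subunits recognise the branch point and the end of the intron, PRPF proteins hold the later complexes together, and DDX and DHX helicases drive their changes of shape. SR proteins mostly promote the use of an exon and hnRNP proteins often repress it. *ESRP1* and *ESRP2* are found in epithelia in mammals, where they set the epithelial form of transcripts such as that of the FGF receptor *FGFR2*, and MBNL and CELF proteins often act in opposition on the same exons.

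Most of the splicing genes differed by less than 1.5-fold between the regions. The members past 1.5-fold in both tables were *ESRP2*, higher in leg than in wing, and the branch point factors *SF3A2* and *SF3B5*, lower in leg than in wing. A ratio between regions is given here as a log2 ratio of value + 1, centred on the median ratio of all entries of the same table whose mean is at least 1, and an entry is counted as higher or lower when it passes 1.5-fold. In the whole-number table, 7 of 85 members passed in wing versus neck, 1 upwards and 6 downwards. The same comparison called 26.9% of all 6534 entries, 12.5% higher and 14.4% lower. For leg versus neck 1 of 85 members passed, downwards, beside 10.5% of all entries, 4.91% higher and 5.6% lower. For leg versus wing 12 of 85 passed, 5 upwards and 7 downwards, beside 30.5%, 15.3% higher and 15.2% lower. As shares of the members these are 8.24%, 1.18% and 14.1%.

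In the FPKM table the filter kept 73 of the 76 members. Of these, 3 passed in wing versus neck, 1 upwards and 2 downwards, beside 26.4% of 4736 entries, 15.6% higher and 10.8% lower. For leg versus neck 2 passed, both downwards, beside 10.3%, 7.05% higher and 3.23% lower. For leg versus wing 6 passed, 3 upwards and 3 downwards, beside 26.5%, 12.7% higher and 13.8% lower. The 3 members under the filter were *DDX4*, a germ cell helicase, at 0.0788, 0.401 and 0.106 FPKM in neck, wing and leg, *RBM24* at 0.349, 0.922 and 0.532 FPKM, and *HNRPK*, which is listed at 0 in all 3 libraries. The interquartile range of the members was 0.35, 0.32 and 0.39 log2 units in the whole-number table for the 3 pairs in this order, beside 0.64, 0.36 and 0.71 for all entries. In the FPKM table it was 0.31, 0.27 and 0.44, beside 0.62, 0.37 and 0.64.

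The direction of these counts depends on the scaling of the libraries. Before centring, the median ratio of all entries for the same 3 pairs was -0.08, -0.31 and -0.23 in the whole-number table, and 0.39, -0.03 and -0.44 in the FPKM table. With the values as deposited, the FPKM table gave 18 members higher and 0 lower in wing versus neck, beside 38.2% of all entries past 1.5-fold. In leg versus wing it gave 0 higher and 28 lower, beside 43.1%. The whole-number table then gave 3 higher and 17 lower in leg versus wing, beside 35.1%. Here and below, shares of all entries past 1.5-fold under a scaling other than centring count both directions together. With every library brought to the same total without its 10 highest entries, wing versus neck gave 10 higher and 4 lower whole-number entries and 6 higher and 2 lower FPKM entries, beside 29.4% and 29.5% of all entries. Leg versus neck then gave 2 higher and 1 lower whole-number entries, and leg versus wing gave 1 higher and 10 lower FPKM entries, beside 11.7% and 30.5%. Counts and ratios are centred unless another scaling is named. Member-by-member contrasts within a table, such as the ratio of 2 of the genes, do not have this limit. "Every scaling" below means these 3: centred, as deposited and same total.

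**Figure D1:**
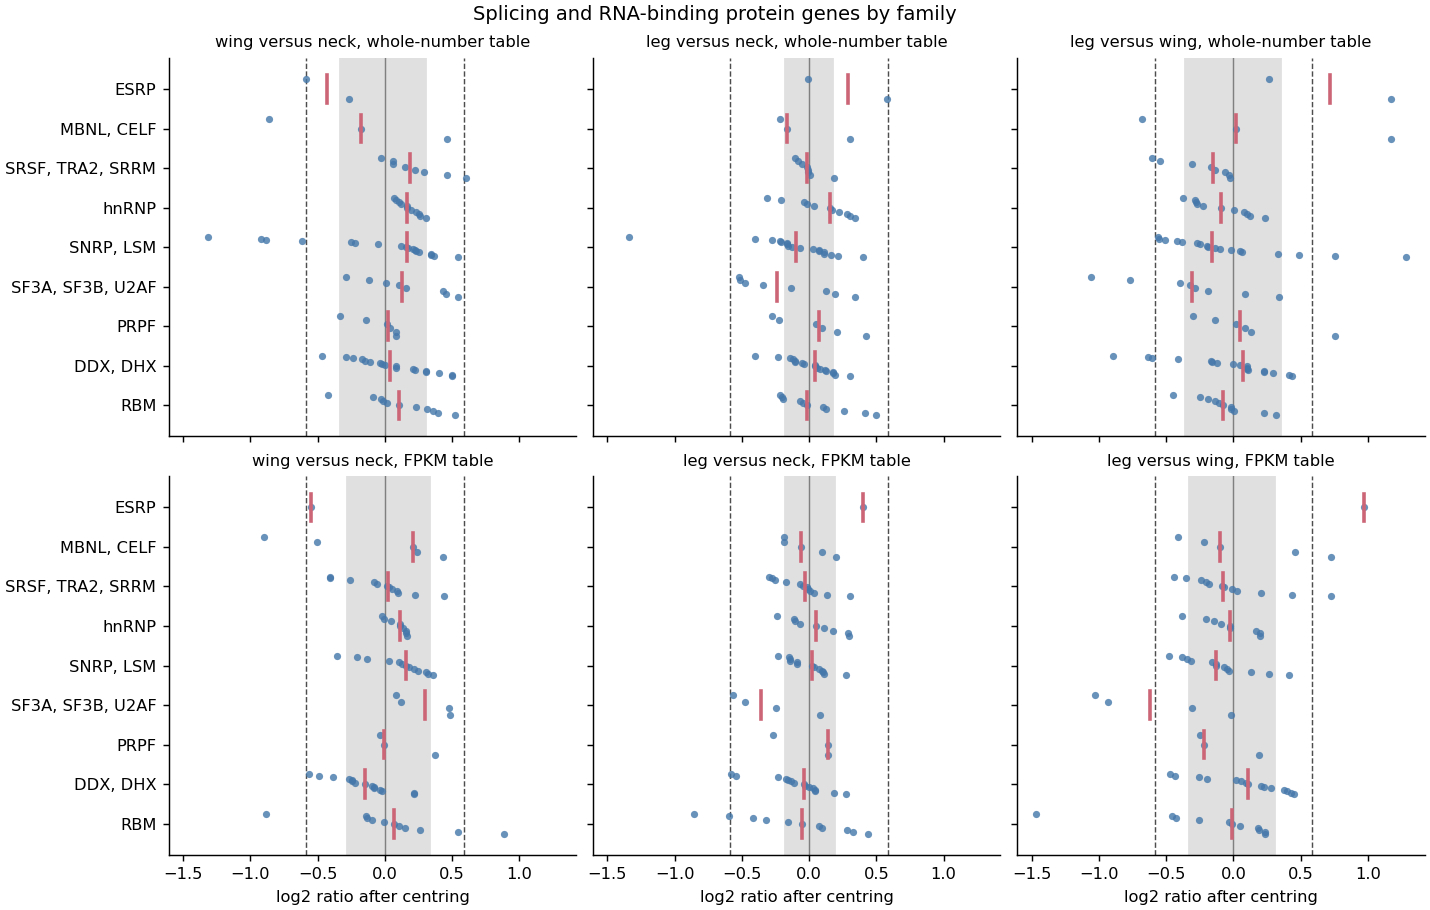
Centred log2 ratios of the members past the filter, 1 point per gene, by family (rows) for the 3 pairs of regions (columns) in the whole-number table (top) and the FPKM table (bottom). Red ticks mark family medians, the grey band is the interquartile range of all entries of the table, and dashed lines mark 1.5-fold; most points lie within the dashed lines, and 1 of 85 and 2 of 73 pass them between leg and neck.

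*ESRP2*, the epithelial splicing regulator, was lowest in the wing and highest in the leg in both tables. The whole-number table listed it at 123 (neck), 77 (wing) and 149 (leg). The FPKM table gave 234.5, 210.1 and 302.8 FPKM in the same order. The 3 regions thus kept 1 order in both tables, leg above neck above wing.

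Between leg and wing the centred log2 ratio of *ESRP2* was 1.17 in the whole-number table and 0.97 in the FPKM table, a 2.25-fold and a 1.96-fold difference. Wing versus neck gave -0.59 and -0.55, and leg versus neck gave 0.58 and 0.40. The sign held under every scaling, but with the values as deposited the FPKM table's log2 ratio of leg versus wing was 0.53, under 1.5-fold. The whole-number table places *ESRP2* on chromosome 11, from 3355237 to 3399143. Neither table names its assembly. The paper names Galgal4 for the mapping. Chromosome 33 holds 46 of the listed loci, and the build of these coordinates was not settled.

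*ESRP1*, the close relative of *ESRP2*, is listed in the whole-number table only, at 50 (neck), 39 (wing) and 40 (leg) (chromosome 2, 126739073 to 126771689). Its centred ratios were -0.27 for wing versus neck, -0.01 for leg versus neck and 0.26 for leg versus wing, all under 1.5-fold. The ratio of *ESRP2* to *ESRP1*, which no scaling of a library changes, was 2.46 (neck), 1.97 (wing) and 3.73 (leg).

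The epithelial content of the libraries was read from a list of 14 epithelial genes. The whole-number table listed 9, which summed to 2604 (neck), 1996 (wing) and 1967 (leg), and their centred wing versus neck ratios ranged from -0.90 to 0.84 with a median of -0.14. E-Cadherin (*CDH1*) was at 147, 122 and 109 there and at 108, 125 and 95.0 FPKM in the FPKM table. The FPKM table listed 10, and the list summed to 4775, 6020 and 4333 FPKM in neck, wing and leg, with wing versus neck ratios between -0.56 and 1.74 and a median of -0.13. The basal keratins *KRT14*, at 274.7, 971.8 and 281.2 FPKM, and *KRT15*, at 119.4, 526.4 and 132.9 FPKM, made up most of the higher wing sum. *KRT5* and *KRT75* are listed at 0 FPKM in each library, although *KRT5* is at 307, 519 and 244 in the whole-number table, so such a 0 may be a failed estimate and is not read as absence.

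Of 16 mesenchymal genes such as collagens, lumican and decorin, the whole-number table listed 7, which summed to 202 (neck), 635 (wing) and 384 (leg). The FPKM table listed 14, which summed to 418, 1811 and 963 FPKM. Against the neck, 6 of 7 and 12 of the 13 past the filter were called higher in the wing, and the same numbers in the leg. *ESRP2* was thus lowest in the libraries with the highest mesenchymal sum, but was higher in leg than in neck although the leg sum was above the neck sum. Their part in the results was not tested, and fewer cells of a type and less RNA per cell cannot be told apart in these bulk samples.

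The melanocyte list was uneven. Its 6 genes of the whole-number table summed to 260, 787 and 188 in neck, wing and leg, with 4 called higher in wing than in neck, *MLANA* (147, 575 and 104) making up most of the sum and *KIT* at 28, 24 and 22. Its 8 genes of the FPKM table summed to 203, 402 and 185 FPKM, and of the 6 past the filter 3 were called higher in wing than in neck and 1 lower. *TYR* was at 48.7, 209.5 and 36.0 FPKM there, whereas *TYRP1*, a melanin enzyme, was at 13.7, 0.203 and 20.2 FPKM. Of genes of blood and endothelium the whole-number table lists *LMO2* at 33, 33 and 28, and the FPKM table lists 8, summing to 42.8, 140.3 and 51.1 FPKM. Smooth and striated muscle genes, 4 in the FPKM table, summed to 8.52, 35.8 and 17.9 FPKM. *PMEL*, at 24, 62 and 17 in the whole-number table, is another entry listed at 0 FPKM in each region.

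The proteins of the muscleblind genes *MBNL1* and *MBNL3* bind pre-mRNA and shift exon choice during differentiation. After centring, these genes differed in opposite directions in the pairs with the wing. *MBNL1* was listed at 22 (neck), 29 (wing) and 15 (leg), and at 44.2, 69.0 and 37.8 FPKM. *MBNL3* was listed at 24, 12 and 24, and at 33.7, 31.2 and 31.5 FPKM. *MBNL1* was highest in the wing and lowest in the leg in both tables, and *MBNL3* was lowest in the wing in both, although its FPKM values span only a narrow range.

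In leg versus wing the centred ratio of *MBNL1* was -0.68 in the whole-number table and -0.41 in the FPKM table, and that of *MBNL3* was 1.17 and 0.46, so that both passed 1.5-fold in the whole-number table only. *MBNL1* passed in the FPKM table too with the values as deposited and with the same total. *MBNL3* also passed in wing versus neck in the whole-number table, at -0.86, with -0.50 in the FPKM table. With the values as deposited *MBNL3* was nearly level in FPKM, at 0.02 in leg versus wing and -0.11 in wing versus neck. In leg versus neck the centred FPKM ratios of *MBNL1* and *MBNL3* were both below 0, at -0.19 and -0.06. The ratio of *MBNL1* to *MBNL3* in a library was 0.917 (neck), 2.42 (wing) and 0.625 (leg) in whole numbers, and 1.31, 2.21 and 1.20 in FPKM. The wing library therefore held the highest ratio in both tables, 2.64-fold and 1.69-fold above the neck. *MBNL2*, in the FPKM table only, was at 13.6, 21.2 and 14.3 FPKM, and the ratio of *MBNL1* to *MBNL2* was 3.25 (neck), 3.25 (wing) and 2.65 (leg).

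*CELF1*, which promotes exon skipping at many muscleblind targets in mammals, was listed at 17 (neck), 14 (wing) and 12 (leg), and at 16.3, 11.2 and 13.8 FPKM. It was highest in the neck in both tables, but the order of wing and leg differed. It passed 1.5-fold in the FPKM table only, at -0.90 in wing versus neck and 0.73 in leg versus wing, where the whole-number table gave -0.18 and 0.02. With the values as deposited the FPKM table gave -0.51 and 0.29, under 1.5-fold. *CELF2*, in the FPKM table only, was at 6.21, 11.8 and 7.09 FPKM, with a centred wing versus neck ratio of 0.43.

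**Figure D2:**
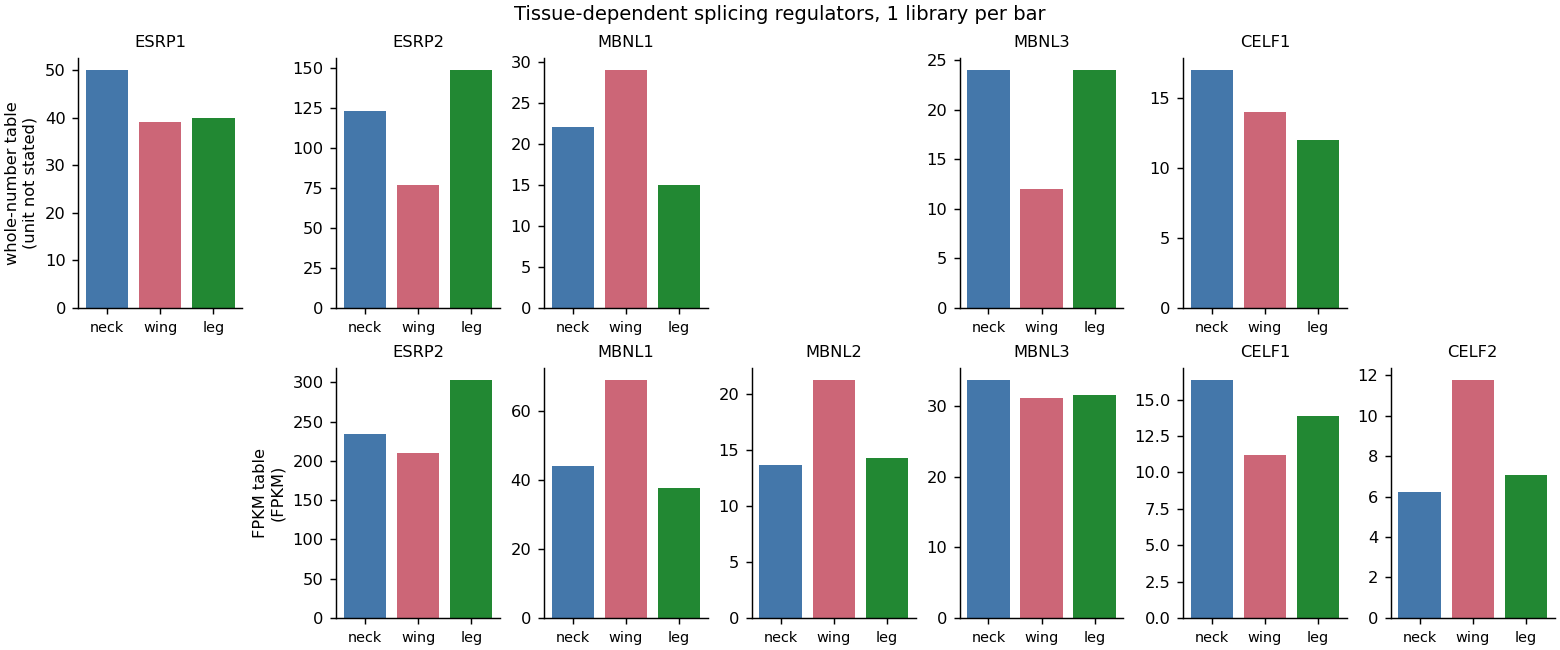
Values of the epithelial (ESRP), muscleblind (MBNL) and CELF regulators in neck, wing and leg, in the whole-number table (top, unit not stated) and the FPKM table (bottom, FPKM), with 1 library per bar, no error bars and axes from 0. An empty place means that the gene has no entry in that table; *ESRP2* is lowest in the wing and highest in the leg in both rows.

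SR proteins and their relatives were among the abundant members and differed little after centring. The whole-number table lists 8 and the FPKM table has 12. Wing versus neck was above 0 in 7 of 8 and 7 of 12 (5 of 8 and 10 of 12 with the values as deposited), and leg versus wing was below 0 in 8 of 8 in the whole-number table under every scaling and in 8 of 12 in the FPKM table (11 of 12 as deposited). As deposited, 2 of 8 and 5 of 12 passed 1.5-fold in leg versus wing, all downwards, beside 35.1% and 43.1% of all entries. The medians of all entries were -0.23 and -0.44 there. *SRSF1*, a founding member of the family, was listed at 144 (neck), 142 (wing) and 108 (leg), and at 246.5, 306.1 and 195.6 FPKM. No centred ratio of *SRSF1* passed 1.5-fold, and the leg was the lowest library in both tables. Its leg versus wing ratio in FPKM was -0.64 as deposited, past 1.5-fold.

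*SRSF5* was the only SR gene past 1.5-fold in the whole-number table after centring. It was listed at 45, 65 and 36 in neck, wing and leg there and at 73.0, 130.7 and 70.4 FPKM in the FPKM table, so that the wing was highest in both. Its centred ratios were 0.60 and 0.44 in wing versus neck and -0.61 and -0.44 in leg versus wing, past 1.5-fold in the whole-number table only. With the same total *SRSF5* passed in both tables in both pairs, and with the values as deposited it did so in leg versus wing, but fell short in wing versus neck in the whole-number table, at 0.52. The FPKM table also lists *SRSF5A*, a relative of *SRSF5* by its name, at 191.7, 189.8 and 230.8 FPKM. It passed 1.5-fold in leg versus wing, at 0.72, opposite in sign to *SRSF5*, but at 0.28 with the values as deposited and 0.53 with the same total, both under 1.5-fold.

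How reads were shared between *SRSF5* and *SRSF5A* is not known, so both values are uncertain. Their sum was 264.7 (neck), 320.4 (wing) and 301.2 (leg), and the ratio of *SRSF5* to *SRSF5A* was 0.381, 0.689 and 0.305. The ratio of *SRSF5* to *SRSF1*, which does not involve *SRSF5A*, was 0.313, 0.458 and 0.333 in the whole-number table and 0.296, 0.427 and 0.360 in the FPKM table, highest in the wing in both.

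The transformer-2 genes *TRA2A* and *TRA2B* encode SR-like activators of exons. *TRA2A* was listed at 62 (neck), 81 (wing) and 47 (leg), and at 138.1, 193.0 and 119.7 FPKM. *TRA2B* was listed at 60, 59 and 48, and at 122.8, 163.2 and 119.1 FPKM. *TRA2A* was highest in the wing and lowest in the leg in both tables, with centred leg versus wing ratios of -0.55 and -0.24, both under 1.5-fold, but -0.77 and -0.68 and past it with the values as deposited. Those of *TRA2B* were -0.06 and -0.01.

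The hnRNP genes, which coat nascent transcripts, were nearly level across the regions after centring. None of 11 in the whole-number table or 9 past the filter in the FPKM table then passed 1.5-fold in any pair of regions. As deposited, leg versus wing was below 0 in 10 of 11, with a median of -0.32, and in 9 of 9, with a median of -0.47. The medians of all entries were -0.23 and -0.44. Of these genes 1 and 3 passed, beside 35.1% and 43.1% of all entries. *HNRNPAB* passed in both tables, at -0.61 and -0.83. Centred wing versus neck ratios were above 0 in 11 of 11, between 0.07 and 0.31, and in 7 of 9, between -0.02 and 0.16 (9 of 11 and 9 of 9 with the values as deposited). *HNRNPA2B1*, the highest of them in FPKM, was listed at 153 (neck), 157 (wing) and 144 (leg), and at 429.0, 627.3 and 452.7 FPKM. Its centred ratios lay between 0.10 and 0.22 in the whole-number table and between -0.03 and 0.15 in the FPKM table.

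Subunits of the SF3A and SF3B complexes, which hold the U2 ribonucleoprotein on the branch point, were mostly lower in leg than in wing. Leg versus wing was below 0 in 6 of 7 in the whole-number table, with a median of -0.32, and in 3 of 3 in the FPKM table, with a median of -0.93, and these counts were the same under every scaling. *SF3A2* and *SF3B5* passed 1.5-fold in both tables, and with *ESRP2* they were the only members of the 52 that did so the same way in any pair of regions. The count for leg versus wing was 3 of 52, beside 15% of the 2140 entries past the filter in both tables, 7.1% higher and 7.94% lower. For wing versus neck it was 0 of 52, beside 12.4%, 6.31% higher and 6.12% lower. For leg versus neck it was also 0 of 52, beside 3.64%, 2.01% higher and 1.64% lower.

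*SF3A2* was listed at 15 (neck), 21 (wing) and 8 (leg) (chromosome 28, 2024223 to 2029383), and at 23.6, 44.0 and 15.2 FPKM. *SF3B5* was listed at 46, 59 and 29 (chromosome 3, 46010324 to 46011254), and at 52.6, 97.0 and 36.7 FPKM. Both ranked wing above neck above leg in each table. The centred leg versus wing ratio of *SF3A2* was -1.06 and -1.03, a 2.09-fold and a 2.04-fold difference, and that of *SF3B5* was -0.77 and -0.93, a 1.71-fold and a 1.91-fold difference. Rounding to a whole number, up to 0.5, moves a value of 10 by 0.06 on this scale. It can move the *SF3A2* leg value of 8 by more, and both values of a ratio are rounded. Error other than rounding was not estimated.

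For leg versus neck *SF3A2* gave -0.52 and -0.57, and *SF3B5* gave -0.34 and -0.47. For wing versus neck the ratios were 0.54 and 0.48 for *SF3A2* and 0.43 and 0.48 for *SF3B5*, all short of 1.5-fold, though both genes passed it in both tables when the libraries were brought to the same total. Both pass in leg versus wing with the values as deposited and with the same total as well.

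Between leg and wing the other subunits were less uneven. *SF3A1* was listed at 22, 19 and 12 in neck, wing and leg, and at 28.9, 40.5 and 23.6 FPKM, with leg versus wing ratios of -0.39 and -0.31. *SF3A3*, *SF3B4* and *SF3B6*, in the whole-number table only, gave -0.29, -0.19 and -0.32. *SF3B1*, the large subunit that touches the branch point, was the exception at 78, 74 and 80, with 0.34. In leg versus neck *SF3A1* gave -0.52 and -0.24 and *SF3B4* gave -0.48. The lower leg value against the neck was thus not particular to *SF3A2* and *SF3B5*. The other subunits gave -0.13 (*SF3A3*), 0.13 (*SF3B6*) and 0.34 (*SF3B1*) there. The ratio of *SF3A2* to *SF3B1* was 0.192 (neck), 0.284 (wing) and 0.1 (leg), and that of *SF3B5* to *SF3B1* was 0.590, 0.797 and 0.363.

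*U2AF1*, the small subunit of the factor that reads the end of the intron, was listed at 63, 64 and 58 and at 52.9, 75.7 and 54.7 FPKM. Its centred ratios lay between 0.09 and 0.19 in the whole-number table and between -0.02 and 0.12 in the FPKM table. Its FPKM were also highest in the wing, but the leg was not below the neck there.

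**Figure D3:**
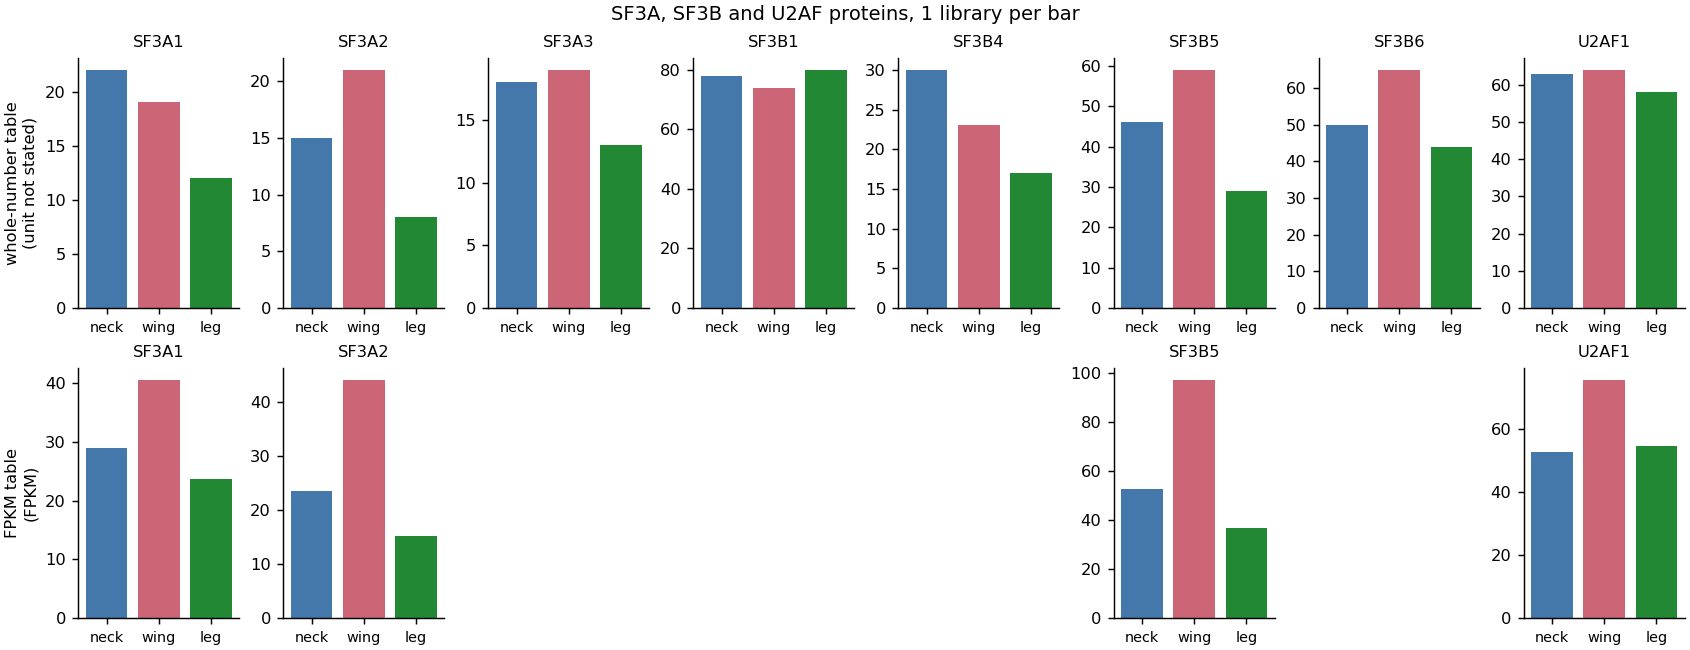
Values of the SF3A, SF3B and U2AF genes in neck, wing and leg, in the whole-number table (top, unit not stated) and the FPKM table (bottom, FPKM), with 1 library per bar, no error bars and axes from 0. *SF3A2* and *SF3B5* are highest in the wing and lowest in the leg in both rows, and *SF3B1*, in the whole-number table only, is nearly level at 78, 74 and 80.

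The Sm and snRNP genes (SNRP) gave different pictures in the tables. In the FPKM table wing versus neck was above 0 in 7 of 7 and leg versus wing was below 0 in 7 of 7 under every scaling. The centred ratios ran from 0.13 to 0.36 and from -0.48 to -0.03, and none passed 1.5-fold. As deposited, 5 of 7 passed in wing versus neck, with a median of 0.64, beside 38.2% of all entries and their median of 0.39. In leg versus wing 4 of 7 passed, with a median of -0.76, beside 43.1% of all entries and their median of -0.44. In the whole-number table the same counts were 4 of 9 above 0 and 6 of 9 below 0 after centring. There *SNRPC*, *SNRPD2* and *SNRPF* passed downwards in wing versus neck, 3 of 9, beside 14.4% of all entries lower and 12.5% higher. In leg versus wing *SNRPF* alone passed, upwards, 1 of 9, beside 15.3% higher and 15.2% lower. *SNRPF*, a member of the Sm ring, was listed at 537 (neck), 275 (wing) and 573 (leg) in whole numbers and at 240.9, 391.9 and 220.5 FPKM. The wing library was thus the lowest in one table and the highest in the other.

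The centred wing versus neck ratio of *SNRPF* was -0.88 in the whole-number table and 0.31 in the FPKM table, and leg versus wing was 1.28 and -0.38. *SNRPC*, the U1 protein C, showed the same split at 250, 154 and 185 and at 112.5, 175.9 and 117.9 FPKM, with wing versus neck ratios of -0.61 and 0.25. The listed loci are chromosome 1, 45665311 to 45666829, for *SNRPF* and chromosome 26, 4305762 to 4310544, for *SNRPC*. No value here tells which table is nearer to the regions' true order for these genes.

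*SNRPD2*, another Sm ring member, was listed at 49 (neck), 18 (wing) and 15 (leg) in the whole-number table only, on an unplaced scaffold. Its ratios of -1.31 in wing versus neck and -1.34 in leg versus neck were the lowest of the 85 members in both comparisons, and *SNRPD2* was the only member past 1.5-fold between leg and neck in that table. *SNRPD3* was highest in the wing in both tables, at 71, 98 and 64 and at 186.9, 285.0 and 191.8 FPKM, with wing versus neck ratios of 0.54 and 0.21.

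LSm proteins form a like ring on the U6 RNA and, in another make-up, on mRNAs that are being decayed. Of 9 LSM genes in the whole-number table and 6 in the FPKM table, *LSM4* alone passed 1.5-fold after centring. It was listed at 89 (neck), 44 (wing) and 64 (leg), in the whole-number table only, with -0.92 in wing versus neck and 0.76 in leg versus wing. With the values as deposited the second of these was 0.53, under 1.5-fold. *LSM1* and *LSM12* then passed in leg versus wing in the whole-number table, at -0.79 and -0.74, and *LSM1* in leg versus neck, at -0.71. In leg versus neck *LSM12* lay at the 1.5-fold line, at -0.58, and was not counted. In the FPKM table *LSM6* passed in leg versus wing, at -0.60. Of all entries 35.1% and 43.1% passed in leg versus wing in the 2 tables.

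PRPF proteins belong to the U4/U6.U5 tri-snRNP and to the complexes that activate it. The centred ratios of 6 genes in the whole-number table and 3 in the FPKM table were under 1.5-fold after centring, apart from *PRPF8*, the core protein of the catalytic centre. *PRPF8* was listed at 11 (neck), 8 (wing) and 12 (leg), in the whole-number table only, with 0.76 in leg versus wing, 0.53 and under 1.5-fold with the values as deposited. These are among the lowest values in that table, whose lowest mean over the 3 libraries is 9.67. *PRPF3*, highest of the family in FPKM, was at 52.2, 68.4 and 42.1 FPKM.

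The DDX and DHX helicases were 18 genes in the whole-number table and 15 past the filter in the FPKM table. Those past 1.5-fold were *DDX23*, *DDX27* and *DHX36*, all lower in leg than in wing in the whole-number table and none in the FPKM table. The whole-number count was thus 3 of 18, beside 15.2% of all entries lower and 15.3% higher in that pair. The FPKM count was 0 of 15, beside 13.8% lower and 12.7% higher. With the values as deposited, 4 of 15 were lower in the FPKM table, beside 43.1% of all entries past 1.5-fold. *DDX23*, a helicase of the U5 ribonucleoprotein, was listed at 17 (neck), 23 (wing) and 10 (leg), in the whole-number table only, with -0.90 in leg versus wing. *DDX27*, known from ribosome assembly, was at 15, 19 and 10 and at 37.2, 57.4 and 30.8 FPKM, with -0.63 and -0.43, and it was chosen for mention after its values were seen, as was *DHX36* at 11, 15 and 8.

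In the FPKM table centred wing versus neck ratios were above 0 in 2 of 15 helicases, but the count was 13 of 15 with the values as deposited and 8 of 15 with the same total, so no direction holds for the family. *DDX6*, a helicase of mRNA decay, was listed at 40, 34 and 31 and at 64.0, 56.6 and 56.9 FPKM. Its wing versus neck ratio was -0.15 and -0.57, under 1.5-fold. *DDX10*, of ribosome assembly, was at 28.7, 35.5 and 18.4 FPKM, with -0.58 in leg versus neck, just under 1.5-fold. As deposited it passed, at -0.61 there and -0.91 in leg versus wing.

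*DDX5* and *DDX3X* were the most abundant members. *DDX5*, a helicase that also acts in transcription, was listed at 378 (neck), 292 (wing) and 332 (leg), and at 700.5, 704.6 and 698.2 FPKM. *DDX3X*, which acts in translation, was at 512.0, 637.3 and 486.5 FPKM. The FPKM of *DDX5* hardly varied, yet its centred wing versus neck ratio was -0.38, since the centring takes away a median shift of 0.39.

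Among the RBM genes, 2 passed 1.5-fold after centring and both are listed in the FPKM table only. *RBM38*, an RNA-binding protein that binds target mRNAs downstream of p53 in mammals, was at 2.94 (neck), 8.56 (wing) and 1.54 (leg) FPKM, with 0.89 in wing versus neck, -0.60 in leg versus neck and -1.47 in leg versus wing. It was the only member past 1.5-fold in all 3 pairs, at the lowest FPKM of the members past the filter, where the added 1 understates a ratio. *RBM12* was highest in the neck, at 19.0, 13.2 and 9.82 FPKM, with -0.88 in wing versus neck and -0.85 in leg versus neck. With the values as deposited the first of these was -0.49.

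*RBM12B*, named for its likeness to *RBM12*, was lowest in the neck in both tables, at 13, 18 and 15 and at 36.7, 52.1 and 45.1 FPKM. *RBM5*, by its name a splicing regulator of apoptosis genes in mammals, was also lowest in the neck in both, at 61, 62 and 66 and at 97.8, 154.4 and 129.7 FPKM. Leg versus neck gave 0.50 and 0.32 for *RBM12B* and 0.42 and 0.44 for *RBM5*. *RBM7*, which guides nuclear RNA to decay, was at 27.6, 53.7 and 29.0 FPKM, with 0.54 in wing versus neck. All of these were under 1.5-fold. In wing versus neck, however, *RBM7* was 0.93 with the values as deposited and 0.74 with the same total. In the same pair *RBM5* was 0.65 in FPKM as deposited, and *RBM12B* was 0.67 in whole numbers with the same total. With the same total *RBM12B* also passed 1.5-fold in leg versus neck in whole numbers. The leg versus neck ratio of *RBM5* in FPKM was 0.40 as deposited, under 1.5-fold.

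Levels can be compared between genes only in the FPKM table, where values are per length. The 73 members past the filter had a median of 72.0 FPKM over the means of the 3 libraries, beside 30.3 FPKM for all 4736 entries. The quartiles were 35.8 and 150.2 FPKM and the whole range between 4.35 and 701.1. *DDX5*, *DDX3X* and *HNRNPA2B1* were the 3 highest members, at means of 701.1, 545.3 and 503.0 FPKM, and held these ranks in each of the 3 libraries. They stood at ranks 138, 157 and 166 among all entries.

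Within the families the highest mean FPKM was that of *SNRPF* at 284.5 for the Sm and LSm proteins, *SRSF1* at 249.4 for the SR proteins, *RBM5* at 127.3 for the RBM proteins, *SF3B5* at 62.1 for the branch point factors, *PRPF3* at 54.3 for the PRPF proteins and *MBNL1* at 50.3 for the muscleblind and CELF proteins. *ESRP2*, at 249.2 FPKM, stood at rank 9 of the members. Its rank was 9 (neck), 15 (wing) and 6 (leg), and in the leg only helicases and hnRNP genes were above it. The regulators known to vary between tissues thus covered a wide range, from *CELF2* at 6.21 FPKM in neck to *ESRP2* at 302.8 FPKM in leg.

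**Figure D4:**
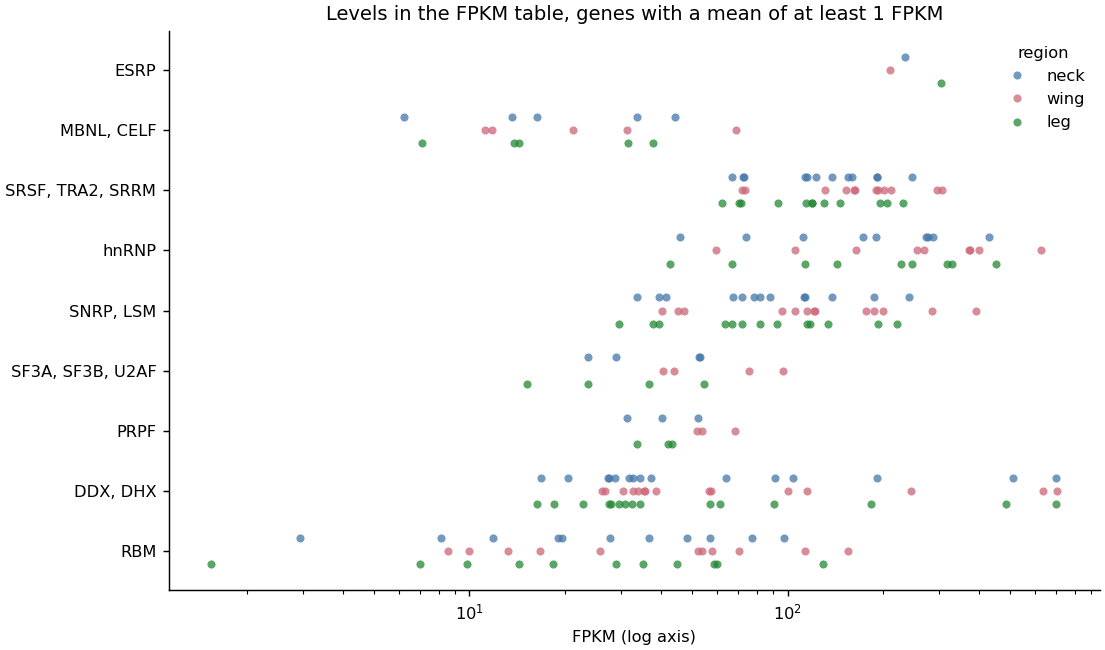
FPKM of the 73 members with a mean of at least 1 FPKM in the FPKM table, on a log axis, by family, with 1 point per gene and library and a colour per region. *ESRP2* lies between 210.1 and 302.8 FPKM, above every muscleblind and CELF gene, and *DDX5* and *DDX3X* have the highest means.

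The wing library held the highest centred value of 42 of 85 members in the whole-number table and of 34 of 73 in the FPKM table, beside 41.4% and 41.2% of all entries. The neck held 19 and 20, beside 26.6% and 28.4%, and the leg 24 and 19, beside 32% and 30.4%. In percent of the members the wing had 49.4 and 46.6. With the values as deposited the FPKM table put 65 of 73 members highest in the wing, beside 76.4% of all entries. The whole-number table then put 42 of 85 in wing, 31 in neck and 6 in leg, with 6 tied, beside 38.8%, 47.9% and 6.5% of all entries in wing, neck and leg.

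The tables ordered the members in much the same way between leg and neck and less closely in the pairs with the wing. Of the 52 genes in both, 46 had the same sign of the centred ratio in leg versus neck, 38 in wing versus neck and 40 in leg versus wing. These are 88.5%, 73.1% and 76.9%, beside 81.8%, 77.8% and 82.8% of all 2140 entries. Pearson's r between the tables was 0.82, 0.51 and 0.66 for the members and 0.87, 0.87 and 0.89 for all entries, across genes that are not independent replicates. The median distance between the tables was 0.07, 0.16 and 0.16 log2 units for the members, beside 0.08, 0.19 and 0.16.

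**Figure D5:**
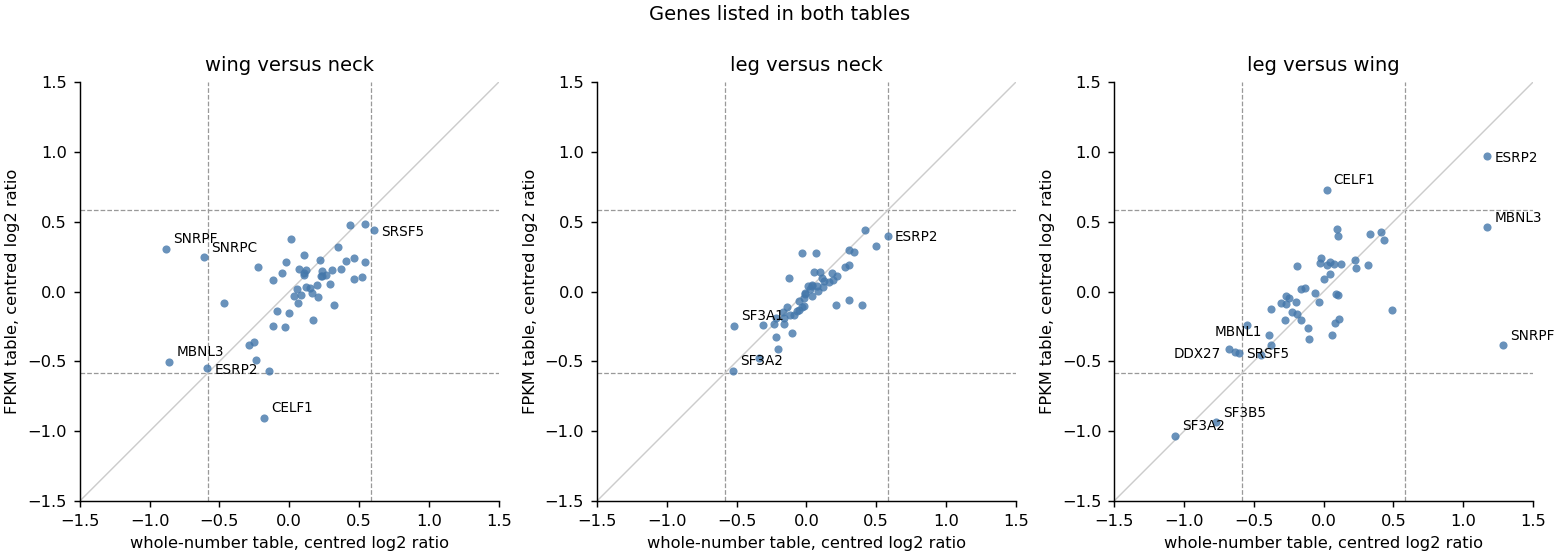
Centred log2 ratios of the 52 genes listed in both tables, whole-number table on the horizontal and FPKM table on the vertical axis, for the 3 pairs of regions; the grey line marks equal ratios and dashed lines 1.5-fold. *ESRP2* sits in the upper right corner and *SF3A2* and *SF3B5* in the lower left corner of the leg versus wing panel, and *SNRPF* lies far off the grey line in the panels that involve the wing.

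Splicing genes that the name rule does not cover were read from a list of 85. The whole-number table lists 44 and the FPKM table has 36, of which *SNRNP200* and *CLK2* are listed at 0 FPKM in every region and 34 pass the filter. *CLK2* is at 16, 14 and 14 in the whole-number table, so these zeros too may be failed estimates. Of the 44, 0 passed 1.5-fold upwards and 3 downwards in wing versus neck, 0 in leg versus neck, and 3 upwards and 2 downwards in leg versus wing. Of the 34, 1 passed downwards in wing versus neck, 0 in leg versus neck, and 1 upwards and 1 downwards in leg versus wing. Over all entries past the filter 26.9%, 10.5% and 30.5% passed in the whole-number table and 26.4%, 10.3% and 26.5% in the FPKM table. *SYF2*, a protein of the activated spliceosome, was the only listed gene past 1.5-fold the same way in both tables. It was lower in leg than in wing, like *SF3A2* and *SF3B5*. Of all 2140 entries past the filter in both tables, 15% passed the same way in that pair.

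*SYF2* was at 24 (neck), 30 (wing) and 15 (leg) and at 46.9, 90.0 and 42.3 FPKM, with leg versus wing ratios of -0.73 and -0.63. *PTBP1*, a repressor of exons, was lowest in the wing in the whole-number table, at 158, 98 and 129, and nearly level in the FPKM table at 262.8, 248.1 and 244.6 FPKM. Its leg versus wing ratio was 0.62 and 0.42, and was under 1.5-fold in both tables with the values as deposited. *PNN*, a desmosome-linked splicing protein, was at 56, 33 and 58 in the whole-number table, and *SRPK1*, a kinase of SR proteins, at 47, 27 and 41, with 1.02 and 0.81.

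The whole-number table gives the members' positions. They lie on 24 chromosomes, with 6 on unplaced scaffolds. Chromosome 20 held 6 of 85 members, or 7.06%, beside 2.11% of all entries, chromosomes 13 and 28 held 5 each, or 5.88%, beside 2.17% and 1.99%, and chromosome 1 held 6, beside 10.7%. The closest neighbours were *SNRPB* and *DDX27* on chromosome 20, with 292 bases between them, and *HNRNPDL* and *HNRNPD* on chromosome 4, with 426. Leg versus wing was -0.10 for *SNRPB* and -0.63 for *DDX27*, and 0.12 for *HNRNPDL* and -0.27 for *HNRNPD*.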

How the data were processed

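RNA of feathers from 3 regions was sequenced on an Illumina platform, and the region and replicate of each sample come from its labels. The first deposited table holds whole-number scores with a locus per entry. The authors state neither their unit nor their normalization, so they were not treated as read counts. The second deposited table holds FPKM by the authors, without loci. The number of mapped fragments is not known for any library, so no interval or detection floor is given. The paper names the Galgal4 assembly, and the submitters' processing notes list galGal4, TopHat2 2.1.0 and Cufflinks 2.2.1 without a role. The column of the authors' mean in the FPKM table was not used. Library sums were 4195932, 1780292 and 3051339 in the whole-number table and 792798, 701758 and 805460 in the FPKM table, for neck, wing and leg, and the 10 highest entries took 33.2% to 66.7% and 5.36% to 30.5% of them.

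Log2 ratios of value + 1 were computed for each pair of regions within a table, over entries with a mean of at least 1, and centred on their median. A difference of at least 1.5-fold was counted. No p-value was computed, since each table holds 1 library per region and the replicate number, the table and the unit are the same thing. The script was tested on simulated data. Members were named in the text by rule: every ESRP, MBNL, CELF, U2AF and TRA2 gene, the 3 largest rises and falls per pair and table, members past 1.5-fold the same way in both tables, and the highest in FPKM overall and per family, 33 in all. The other genes named (*DDX4*, *DDX27*, *DHX36*, *HNRNPAB*, *HNRNPD*, *HNRNPDL*, *HNRPK*, *LSM1*, *LSM6*, *LSM12*, *RBM22*, *RBM24*, *SF3A3*, *SF3B1*, *SF3B4*, *SF3B6*, *SNRPB*, *SNRPC*) were chosen after their values were seen, to complete a count, a complex or a position. Of the names, 83 of 85 and 76 of 76 are in the RefSeq gene table of GRCg7b as a symbol or an older name. That gene table was used for names only. Some names match as older names, such as *RBM5*, which it lists under *RBM10*, and *SNRPB*, under *SNRPN*. The identity of these entries was not checked beyond the name. The members and the lists of markers and other splicing genes were chosen with earlier results of these data known, and 1 gene of the latter list is not reported here. Alternatives were no centring, the same total without the 10 highest entries, a pseudocount of 0.1, no filter, a minimum mean of 20 (whole-number table) or 5 FPKM, 2-fold, each replicate left out and identical names only. The tools were pandas 2.3.3 and numpy 2.4.6 under Python 3.11.15, and figures were drawn with matplotlib 3.10.9.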

Additional observations from a re-analysis of the deposited data

How the results depend on the processing

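A paired analysis, as a fit over both tables with the replicate as a block, was not run. Each replicate number is a table with its own unit and normalization, and comparisons were kept within a table, where a region has 1 library. Of 28 ratios of named genes past 1.5-fold, 20 stayed past it with the values as deposited, 25 with the same total, 28 with a pseudocount of 0.1, 26 with no filter and 21 of 22 with the stricter filter, and none changed sign. *ESRP2* in leg versus wing was 0.53 as deposited in the FPKM table, and its wing versus neck ratio in the whole-number table was -0.42 with the same total and -0.57 with the stricter filter.

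As deposited, the median ratio of the members for wing versus neck, leg versus neck and leg versus wing was 0.0231, -0.315 and -0.323 in the whole-number table and 0.442, -0.0737 and -0.476 in the FPKM table. The members past 1.5-fold were 9 for leg versus neck and 20 for leg versus wing in the whole-number table, beside 18.9% and 35.1% of all entries, and 18, 4 and 28 in the FPKM table, beside 38.2%, 10.6% and 43.1%. The 9 leave out *LSM12*, whose ratio of -0.58 lay at the 1.5-fold line, where rounding in the computation decides. Those highest in neck and leg were 31 and 6 in the whole-number table, beside 47.9% and 6.5% of all entries. Those highest in neck, wing and leg were 6, 65 and 2 in the FPKM table, beside 11.7%, 76.4% and 11.9%. In both tables the same way, 1 passed for leg versus neck (*SF3A2*), beside 4.49% of all entries in both. For leg versus wing 9 passed (*DDX27*, *HNRNPAB*, *MBNL1*, *RBM22*, *SF3A1*, *SF3A2*, *SF3B5*, *SRSF5* and *TRA2A*, all lower), beside 24.2%. The share of members past the fold was below that of all entries in each count here, under every setting.

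With the same total, the medians were 0.271 for wing versus neck and 0.154 for leg versus neck in the whole-number table, and 0.245 for wing versus neck and -0.24 for leg versus wing in the FPKM table. The counts were 14 for wing versus neck and 3 for leg versus neck in the whole-number table, beside 29.4% and 11.7% of all entries. In the FPKM table they were 8 for wing versus neck and 11 for leg versus wing, beside 29.5% and 30.5%. Members highest in neck were 5 and 10 in the whole-number and FPKM tables, beside 11.2% and 17.8% of all entries. In both tables, 3 passed for wing versus neck (*SF3A2*, *SF3B5* and *SRSF5*), beside 13.1% of all entries. For leg versus wing 6 passed, beside 16.4%, where *DDX27*, *MBNL1* and *SRSF5* joined *ESRP2*, *SF3A2* and *SF3B5*.

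A pseudocount of 0.1 gave 2 and 4 members for leg versus neck, beside 11.1% and 14% of all entries. No filter gave 5 for wing versus neck and 4 for leg versus neck in the FPKM table, beside 21.7% and 8.98%. The medians there were 0.145 for wing versus neck and -0.177 for leg versus wing, and 13 were highest in neck, beside 21.1%. In the whole-number table the stricter filter gave 2 for leg versus neck and 7 for leg versus wing, beside 11.3% and 32.9%. The leg versus neck median was then 0.0229, with 12 highest in neck and 27 in wing, beside 26.2% and 41.8%. In the FPKM table the stricter filter gave 1 for leg versus neck, beside 7.31%, with a median of -0.0137. At 2-fold, 1 passed for wing versus neck and 4 for leg versus wing in the whole-number table, 0, 0 and 2 for the 3 pairs in the FPKM table, and 1 (*SF3A2*) for leg versus wing in both. Of all entries, 12.5% passed at 2-fold for wing versus neck and 13.9% for leg versus wing in the whole-number table. In the FPKM table, the shares for the 3 pairs were 11.8%, 3.86% and 10.7%. For leg versus wing, 4.63% passed in both tables. Leaving out 1 replicate leaves 1 table. The count was then 1 (*CELF1*) to 5 (*ESRP2*, *MBNL3*, *SNRPC*, *SNRPF* and *SRSF5*) for wing versus neck, beside 19.1% and 18.1% of all entries. For leg versus wing it was 4 to 8, beside 20.7% and 21.8%. Where calls were lost or gained through a scaling, the median of all entries moves by construction; other causes were not tested.

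The whole-number table's whole numbers limit the genes near its lowest mean of 9.67, and depth is not known for either table.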

Other observations

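Further splicing genes outside the name rule passed 1.5-fold in 1 table after centring, and these examples were chosen after their values were seen. *PPIL1*, a prolyl isomerase of the activated spliceosome, was at 57 (neck), 77 (wing) and 31 (leg) in the whole-number table, with a centred ratio of -1.06 in leg versus wing. *QKI* was at 54.7, 55.0 and 61.2 FPKM, with 0.59 in leg versus wing, and at 23, 17 and 18 in the whole-number table. As deposited its FPKM in leg and wing differed by less than 1.5-fold, since the centring takes away a median shift of -0.44. *RBMS1* was at 56.6, 44.8 and 46.6 FPKM, with -0.72 in wing versus neck, and at 25, 19 and 17 in the whole-number table. Its FPKM in wing and neck also differed by less than 1.5-fold as deposited, where the median shift taken away was 0.39.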
